A study of Mus musculus with 6 samples.

Results

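The genes described here encode the non-collagen proteins of the extracellular matrix: laminins and other basement membrane components, elastic fibre and microfibril proteins, matricellular proteins, small and large proteoglycans, and the syndecans of the cell surface. A list of 59 such genes was drawn up by function, with earlier results of these data known. Of these, 55 were found by symbol among the 15016 genes of the deposited table. The other 4 (Acan, Comp, Matn1 and Hapln1) were not analysed here. RNA-seq was compared between wild-type mouse cochlear progenitor-derived organoids kept in stiff hydrogels (3 libraries) and in soft hydrogels (3 libraries) of modified gelatin and hyaluronic acid carrying an RGD adhesion peptide. Organoids of both groups had been expanded with EGF, bFGF, IGF, CHIR99021 (a GSK3 inhibitor), valproic acid, 2-phospho-L-ascorbic acid and 616452 (a TGF-beta receptor inhibitor). They entered the gels at the differentiation stage, in medium with CHIR99021 and the gamma-secretase inhibitor LY411575. The sources used here do not state the stiffness values, the time in the gels or whether libraries came from separate cultures. The tests therefore reflect variation among these libraries alone, and that variation may be technical.

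Basement membranes are thin sheets under epithelia, built on a laminin network and a type IV collagen network that nidogens and the heparan sulfate proteoglycans perlecan and agrin hold together. The interstitial matrix beyond them holds fibronectin, elastic fibres and proteoglycans, and matricellular proteins such as periostin and osteopontin act on cells more than on the mechanical scaffold. In the cochlea these layers lie under the sensory epithelium and around the spiral ligament, limbus and capsule. The members were therefore read in 2 classes, 18 basement membrane genes and 33 interstitial and matricellular genes, with the 4 syndecans apart.

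The rebuilt depth ranged from 16108470 to 17825127 reads in stiff libraries and from 17328469 to 17899391 reads in soft libraries. Epithelial markers were abundant: the cochlear epithelium list (10 genes) summed to between 1300 and 1461 FPKM in stiff and between 1178 and 1228 FPKM in soft libraries, with 5 members higher in stiff gels and 0 lower (limma, adjusted p under 0.05, against 3.13% higher and 2.68% lower of all tested genes). FPKM is the read count scaled by gene length and library depth. Mesenchyme markers (11 genes) summed to between 187 and 226 FPKM in stiff and between 200.1 and 266 FPKM in soft libraries. Limma called 0 of the 9 tested, and 1 had an unadjusted p under 0.05, against 21.7% of all tested genes. Type I collagen genes were near 0 (Col1a1 averaged 0.117 FPKM in stiff and 0.184 FPKM in soft gels). Endothelial markers (8 genes) summed to between 341 and 426 FPKM in stiff and between 391 and 458 FPKM in soft libraries, and differed widely in level. Emcn averaged 357 FPKM in stiff and 396 FPKM in soft gels, while Pecam1 and Tie1 were at or near 0 (Pecam1 averaged 0.0531 FPKM in stiff and 0.0672 FPKM in soft gels). Of the 4 endothelial genes tested, 1 (Kdr) was lower. Pericyte and smooth muscle markers (8 genes, 3 tested) summed to between 15.2 and 19.1 FPKM in stiff and between 24.9 and 31.8 FPKM in soft libraries, with Rgs5 lower and Acta2 and Myh11 below 1 FPKM on average in both groups. Cartilage markers (5 tested) summed to between 934 and 1082 FPKM in stiff and between 686 and 940 FPKM in soft libraries. Their median log2 fold change (stiff minus soft) was 0.26, and 1 of them was called, Col11a1, which was lower. The endothelial, pericyte and cartilage calls stand against the same 2.68% of all tested genes called lower. The part of cell composition in the matrix results was not tested, and in bulk RNA fewer cells of a type and less RNA per cell cannot be told apart.

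In stiff gels, organoid RNA was richer in periostin, Sparcl1 and 3 elastic fibre genes and poorer in osteopontin, nidogen 2, Ecm1 and chondromodulin, while the 8 tested laminin chains and the most abundant matrix gene, Sparc, were not called. Only the periostin and Sparcl1 calls held whichever library was left out. The other calls were lost in some of these fits, and that of the elastic fibre gene Fbln2 in all of them. Of the 55 members, 50 had a mean of at least 1 FPKM in either group and were tested. In the limma fit over all genes, with Benjamini-Hochberg adjusted p under 0.05, 6 members rose (Postn, Sparcl1, Mfap2, Eln, Fbln2 and Emid1) and 4 fell (Spp1, Ecm1, Nid2 and Cnmd). The called share was 20.0% of tested members, against 5.81% of all 11780 tested genes (3.13% higher and 2.68% lower). The members and classes were chosen with earlier results of these data known, so these shares are a description and not independent evidence. The 6 that rose all belonged to the interstitial and matricellular class, where 30 were tested and 3 fell. In the basement membrane class 16 were tested, 0 rose and 1 fell, the nidogen gene Nid2. Without the adjustment, 7 of these 16 and 18 of the 30 interstitial members had p under 0.05, against 21.7% of all tested genes. The median log2 fold change (stiff minus soft, on log2(FPKM + 1)) was -0.19 for basement membrane and -0.10 for interstitial members, against 0.03 for all tested genes. Negative values were seen in 12 of 16 basement membrane members and in 17 of 30 interstitial members, which ran from -1.49 to 1.26. Of all tested genes, 58.8% had a positive value. The difference between the classes was not tested.

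**Figure D1:**
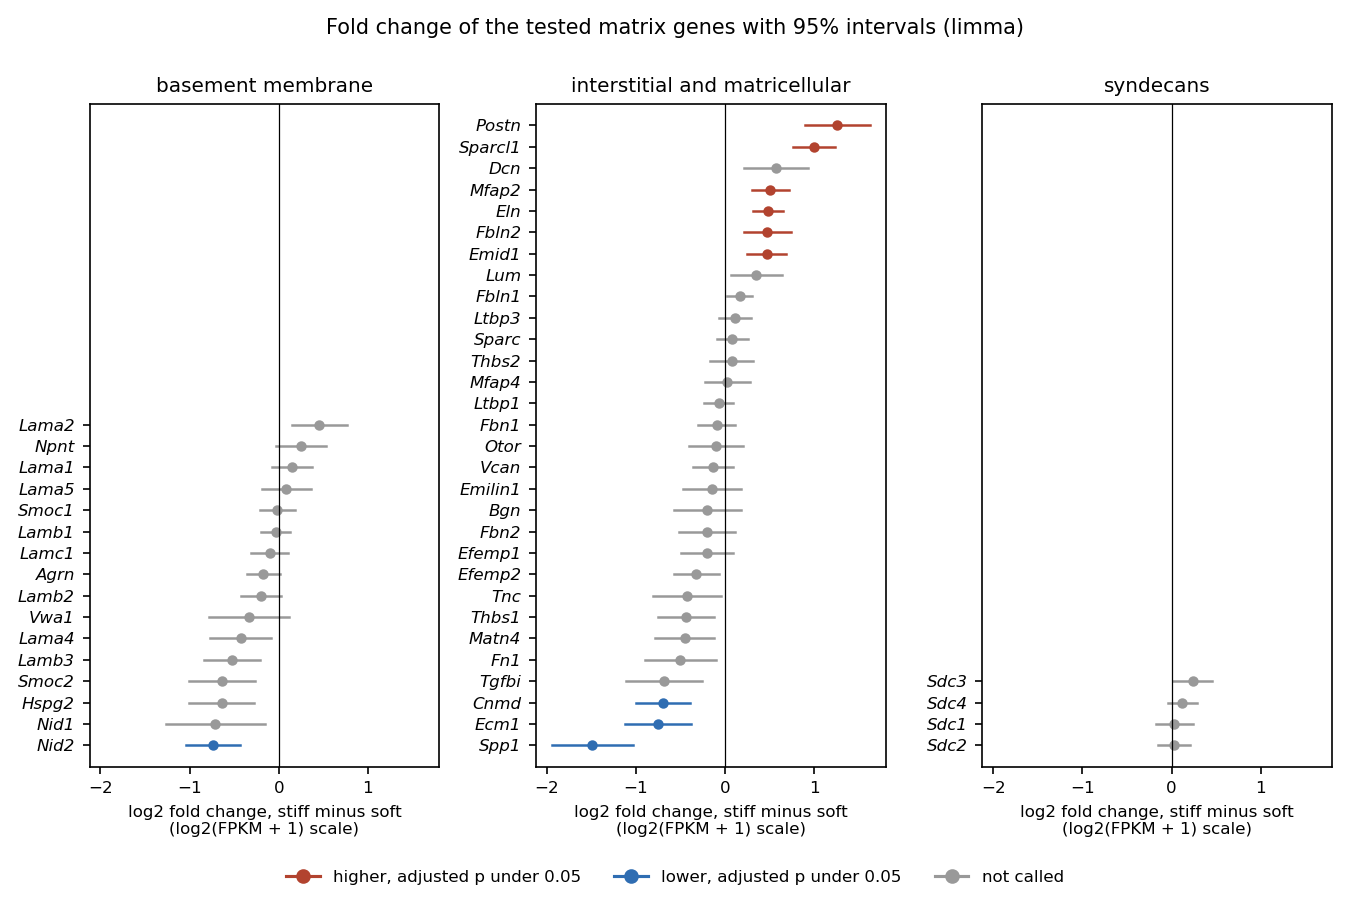
Log2 fold change (stiff minus soft, log2(FPKM + 1) scale, horizontal axis) of the 50 tested matrix genes with 95% intervals from limma, in 3 classes. The interstitial class spreads from Spp1 at -1.49 to Postn at 1.26, with a median of -0.10. The basement membrane class has a median of -0.19, with Nid2 as its only call.

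The authors' deposited table, which holds their own comparison of the same libraries, has more members on the lower side. It has 7 members higher and 12 lower at q under 0.05, against 3.44% and 4.68% of its 15016 genes. Besides the 10 genes above, it has Lama2 higher (log2 fold change 0.85, q = 0.000645) and Lama4, Lamb3, Hspg2, Smoc2, Thbs1, Matn4, Efemp2 and Ltbp2 lower, so 5 of its 12 lower members are basement membrane genes. In the limma fit these were not called, with adjusted p between 0.0544 and 0.142, apart from Ltbp2, which was below 1 FPKM and untested.

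Among the members that rose, periostin and Sparcl1 moved most. Postn, which encodes the fasciclin-domain protein periostin that binds collagen and integrins (chromosome 3, 54361109 to 54391037, mm10), had 48.3, 62.3 and 35.9 FPKM in the stiff libraries, against 18.9, 20.6 and 18.7 FPKM in the soft libraries. Every stiff library lay above every soft one, and the stiff libraries also differed most among themselves. Postn averaged 48.8 ± 13.2 FPKM in stiff and 19.4 ± 1.01 FPKM in soft gels (SD, n = 3 each), 2.52 times as high (log2 fold change 1.26 ± 0.16 SE, limma adjusted p = 0.00858). Its closest relative among the members, Tgfbi, is also a fasciclin-domain adhesion protein. Tgfbi had 496, 581 and 428 FPKM in stiff libraries, against 593, 841 and 1036 FPKM in soft libraries. The groups did not overlap, in the opposite direction to Postn, and Tgfbi was not called (log2 fold change -0.69 ± 0.19 SE, limma adjusted p = 0.0695). Its adjusted p was 0.00271 without soft replicate 1 and 0.0772 to 0.224 when any other library was left out. Within a library, Postn RNA per length was 0.0973, 0.107 and 0.0839 times that of Tgfbi in stiff gels, against 0.0318, 0.0245 and 0.0181 times in soft gels. This ratio was not tested, and it combines the Postn call with the uncalled difference of Tgfbi. Ratios of other pairs were also computed and, apart from Lama4 to Lama5, are not printed.

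Sparcl1, a secreted glycoprotein related to Sparc (chromosome 5, 104079111 to 104113733), had 158, 146 and 135 FPKM in stiff libraries, against 83.4, 73.8 and 62.3 FPKM in soft libraries. The groups were well apart, with means of 146 ± 11.7 FPKM in stiff and 73.2 ± 10.5 FPKM in soft gels (SD, n = 3 each; log2 fold change 1.00 ± 0.11 SE, limma adjusted p = 0.00446). Sparc itself, a collagen-binding matricellular protein of basement membranes and bone, was the most abundant member, with 1603, 1538 and 1622 FPKM in stiff libraries, against 1549, 1536 and 1424 FPKM in soft libraries. Its groups overlapped, and the interval of its log2 fold change ran from -0.09 to 0.25 (limma adjusted p = 0.624). Postn and Sparcl1 were the only members called whichever library was left out, with adjusted p up to 0.0459 and 0.0348.

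Elastic fibre genes held 3 of the 6 rises. Elastic fibres have a core of elastin on fibrillin microfibrils. Of 12 tested members of this group 3 rose and 0 fell, against 3.13% and 2.68% of all tested genes, and the median log2 fold change was -0.02. Eln, the elastin gene (chromosome 5, 134702593 to 134747323), had 7.51, 7.22 and 6.45 FPKM in stiff libraries, against 4.84, 4.71 and 4.81 FPKM in soft libraries. The soft libraries were nearly alike, and all stiff ones were higher (log2 fold change 0.48 ± 0.07 SE, limma adjusted p = 0.0122). Mfap2, the microfibril protein MAGP-1 (chromosome 4, 141010418 to 141015984), had 120.4, 138 and 107 FPKM in stiff libraries, against 81.4, 88.3 and 84.8 FPKM in soft libraries (log2 fold change 0.51 ± 0.09 SE, limma adjusted p = 0.0176). Fbln2, which encodes fibulin 2, a linker of fibrillin and basement membrane proteins (chromosome 6, 91212455 to 91272540), had 5.08, 6.23 and 4.27 FPKM in stiff libraries, against 3.13, 3.52 and 3.65 FPKM in soft libraries. Its adjusted p of 0.0492 (limma, log2 fold change 0.47 ± 0.12 SE) was at the threshold and passed it in 0 of the 6 fits that left out a library (0.0502 to 0.137).

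The fibrillin genes themselves were not called. Fbn2, a fibrillin of developing tissue, had 26.7, 25.6 and 23.8 FPKM in stiff libraries, against 22.7, 31.0 and 35.6 FPKM in soft libraries, and Fbn1 averaged 0.916 ± 0.102 FPKM in stiff and 1.05 ± 0.0944 FPKM in soft gels (SD, n = 3 each). Among the latent TGF-beta binding proteins, which tether the growth factor to microfibrils, Ltbp1 and Ltbp3 had intervals of -0.23 to 0.09 and -0.07 to 0.29 on the log2 scale. Ltbp2 had 0.647, 0.606 and 0.520 FPKM in stiff libraries, against 0.940, 1.08 and 0.923 FPKM in soft libraries. Those groups did not overlap, and with no filter on low values Ltbp2 was called lower (log2 fold change -0.32, limma adjusted p = 0.039). Efemp2, the fibulin 4 gene needed for elastin cross-linking, had 29.8, 31.6 and 24.9 FPKM in stiff libraries, against 31.0, 38.6 and 39.3 FPKM in soft libraries (limma adjusted p = 0.132). Its adjusted p was 0.0185 without soft replicate 1 and 0.132 to 0.368 when any other library was left out. The exons of Efemp2 overlap Mus81 on the opposite strand. The Eln call was lost when soft replicate 2 (0.0593) or stiff replicate 1 (0.0601) was left out, and the Mfap2 call when soft replicate 2 (0.0633), soft replicate 3 (0.0574) or stiff replicate 1 (0.0761) was.

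**Figure D2:**
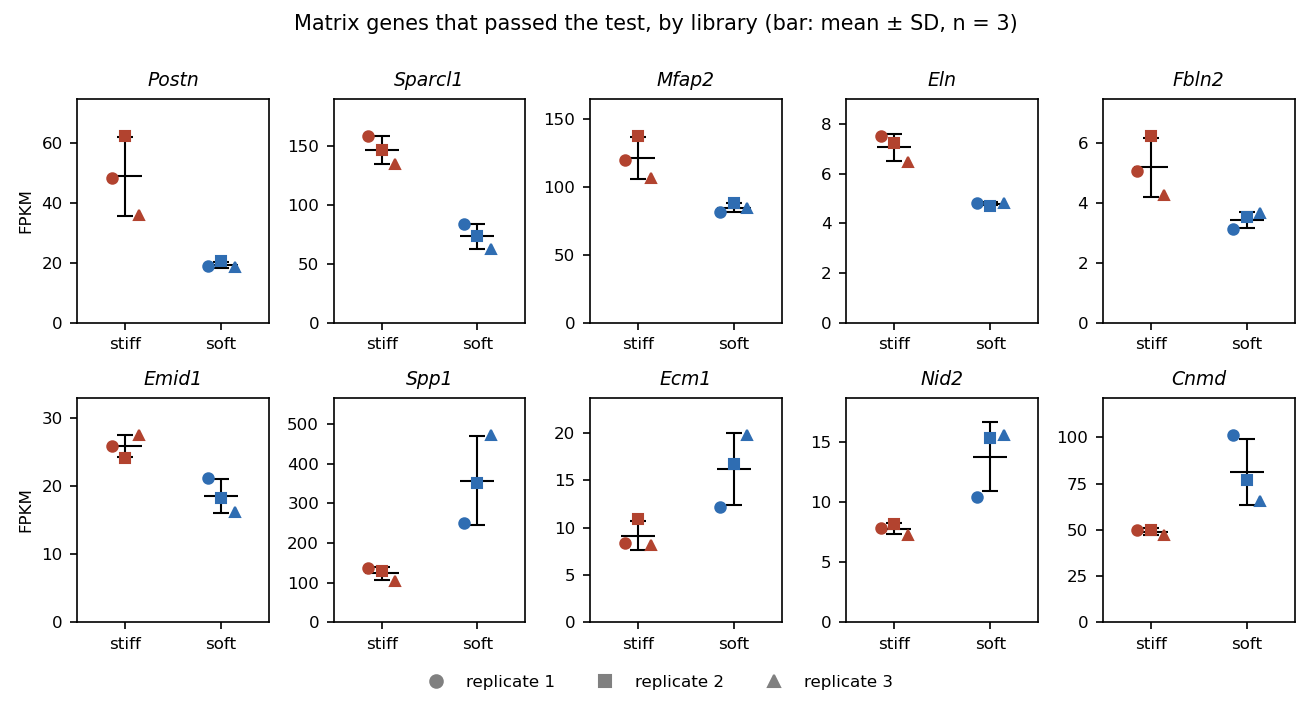
FPKM (vertical axes, each from 0) of the 10 matrix genes that passed the test, in the stiff libraries (left) and soft libraries (right) of each panel, with bars for the mean and SD of 3 libraries. In every panel the points of the groups do not overlap, with Fbln2 and Ecm1 closest to doing so.

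The largest fall was that of Spp1, which encodes osteopontin, a phosphoprotein ligand of integrins and CD44 (chromosome 5, 104435118 to 104441050). Spp1 had 136, 129 and 105 FPKM in stiff libraries, against 249, 351 and 471 FPKM in soft libraries. Even the lowest soft library, soft replicate 1, was above all stiff libraries, with means of 123 ± 16.4 FPKM in stiff and 357 ± 111 FPKM in soft gels (SD, n = 3 each; log2 fold change -1.49 ± 0.20 SE, limma adjusted p = 0.00918). Ecm1, a secreted glycoprotein that binds perlecan and fibulins (chromosome 3, 95734147 to 95739569), had 8.37, 10.9 and 8.12 FPKM in stiff libraries, against 12.2, 16.8 and 19.8 FPKM in soft libraries (log2 fold change -0.75 ± 0.16 SE, limma adjusted p = 0.0326). Cnmd, the chondromodulin gene, whose product inhibits vessel growth in cartilage (chromosome 14, 79637690 to 79662170), had 50.1, 49.9 and 47.1 FPKM in stiff libraries, against 101, 77.0 and 65.8 FPKM in soft libraries (log2 fold change -0.70 ± 0.13 SE, limma adjusted p = 0.0209). For Cnmd soft replicate 1 was the highest soft library, the reverse of its place for Spp1 and Ecm1. Emid1, a secreted protein with an EMI domain (chromosome 11, 5106265 to 5152257), rose instead, with 25.9, 24.2 and 27.5 FPKM in stiff libraries, against 21.2, 18.2 and 16.2 FPKM in soft libraries (log2 fold change 0.46 ± 0.10 SE, limma adjusted p = 0.0275). Spp1 was not called without soft replicate 2 (limma adjusted p = 0.0515). Ecm1 and Emid1 were not called without soft replicate 2, soft replicate 3, stiff replicate 1 or stiff replicate 3 (0.0939 to 0.123 and 0.0834 to 0.106), nor Cnmd without soft replicate 2 or any 1 of the stiff libraries (0.0511 to 0.0830).

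Promoter sequences were available for 37 of the 55 members and for 7 of the 10 called ones (RefSeq, GRCm38.p6, the assembly of mm10). The 250 bases before the start are shown for a pair of genes that rose, Postn and Mfap2, and a pair that fell, Spp1 and Ecm1, from 5′ to 3′ on the gene's strand, with capitals at matches on either strand to the letters TGANTCA (AP-1), GGAATG (TEAD), TGTGGT (Runx) or CACCC (Kruppel-like factors).
Postn (chr3:54360857-54361106, + strand): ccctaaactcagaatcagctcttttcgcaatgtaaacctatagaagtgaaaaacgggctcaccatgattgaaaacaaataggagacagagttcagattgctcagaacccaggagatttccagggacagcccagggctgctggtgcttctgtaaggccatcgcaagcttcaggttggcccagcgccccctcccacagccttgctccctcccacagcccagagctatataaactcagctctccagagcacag
Mfap2 (chr4:141010174-141010423, + strand): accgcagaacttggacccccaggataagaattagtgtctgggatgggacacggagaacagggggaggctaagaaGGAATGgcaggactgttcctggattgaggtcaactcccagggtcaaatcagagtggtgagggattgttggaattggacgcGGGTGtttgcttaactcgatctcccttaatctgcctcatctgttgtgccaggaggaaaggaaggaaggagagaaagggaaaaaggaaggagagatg
Spp1 (chr5:104434861-104435110, + strand): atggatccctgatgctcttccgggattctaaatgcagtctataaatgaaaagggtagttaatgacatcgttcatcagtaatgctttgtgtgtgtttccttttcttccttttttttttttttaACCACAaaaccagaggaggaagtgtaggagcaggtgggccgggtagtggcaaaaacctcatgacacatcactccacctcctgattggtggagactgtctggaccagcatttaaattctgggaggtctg
Ecm1 (chr3:95739570-95739819, - strand): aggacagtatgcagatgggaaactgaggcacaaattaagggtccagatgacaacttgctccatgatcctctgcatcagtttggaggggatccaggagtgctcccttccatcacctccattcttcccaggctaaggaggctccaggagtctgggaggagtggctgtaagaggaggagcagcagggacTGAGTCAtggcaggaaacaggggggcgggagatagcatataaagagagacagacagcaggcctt
No 2 of these matches overlap. The Mfap2 window holds a TEAD match 176 bases and a CACCC match 96 bases before the start, the Spp1 window a Runx match 128 bases before it, and the Ecm1 window an AP-1 match 64 bases before it, while the Postn window holds none of the 4. Among all 20595 promoters of the same length, 6.44% held the AP-1 letters, 12.1% TEAD, 13% Runx and 52.7% CACCC. Of the 4 promoters of members that rose 3 held CACCC, as did 1 of the 3 of members that fell. Among those 3 that rose is Fbln2, whose RefSeq start is 309 bases inside the GENCODE gene, so its window lies within the gene as positioned above. These are matches of letters only.

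In the basement membrane class, 1 gene passed the test, Nid2, which is 1 of the 4 linker genes. The log2 fold changes of all 4 linkers were negative, with a median of -0.68, and the other 3 were not called. Nid2, nidogen 2, which ties laminin to type IV collagen (chromosome 14, 19751265 to 19811787), had 7.87, 8.20 and 7.28 FPKM in stiff libraries, against 10.5, 15.4 and 15.6 FPKM in soft libraries. The groups did not overlap (log2 fold change -0.73 ± 0.13 SE, limma adjusted p = 0.0187), though the call was lost without soft replicate 2, soft replicate 3, stiff replicate 1 or stiff replicate 3 (0.0602 to 0.0818), and the exons of Nid2 overlap those of Rtraf on the other strand, whose reads cannot be told apart in these libraries. Nid1, its paralog, had 20.3, 22.3 and 14.1 FPKM in stiff libraries, against 20.1, 39.4 and 37.6 FPKM in soft libraries. Soft replicate 1 sat among the stiff libraries, as in 43.1% of all tested genes, and Nid1 was not called (log2 fold change -0.71 ± 0.24 SE, limma adjusted p = 0.129). For Nid1 the adjusted p was 0.00303 without soft replicate 1 and 0.144 to 0.364 when any other library was left out. Hspg2, perlecan, had 25.59, 19.5 and 18.7 FPKM in stiff libraries, against 25.61, 37.6 and 38.5 FPKM in soft libraries (log2 fold change -0.64 ± 0.16 SE, limma adjusted p = 0.0544). For Hspg2 the adjusted p was 0.00234 without soft replicate 1 and 0.0764 to 0.186 when any other library was left out. Agrn, agrin, averaged 65.4 ± 4.24 FPKM in stiff and 73.9 ± 7.34 FPKM in soft gels, with overlapping groups (SD, n = 3 each; limma adjusted p = 0.278).

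Laminins are trimers of alpha, beta and gamma chains, and 8 of the 10 chain genes were tested, with 0 called by limma. Without the adjustment, 3 of the 8 had p under 0.05, against 21.7% of all tested genes. Lamb1, Lamc1, Lama4, Lama5 and Lamb2 made up most of the laminin RNA. The interval of the log2 fold change ran from -0.19 to 0.12 for Lamb1 and from -0.31 to 0.10 for Lamc1, so changes beyond those bounds were outside the 95% intervals. Lama4, the alpha chain of vessel and mesenchymal laminins, had 32.2, 36.0 and 27.6 FPKM in stiff libraries, against 33.1, 48.0 and 50.1 FPKM in soft libraries. Lama5, the broad epithelial alpha chain, had 31.3, 22.9 and 24.5 FPKM in stiff libraries, against 22.0, 28.0 and 23.7 FPKM in soft libraries. Groups overlapped for both alpha chains (limma adjusted p = 0.142 and 0.758). As a share of alpha chain RNA per length, Lama4 took 47.5% to 57.6% in stiff and 57.0% to 65.6% in soft libraries. The ratio of Lama4 to Lama5 was 1.03, 1.57 and 1.13 in stiff libraries, against 1.505, 1.71 and 2.11 in soft libraries, so it was lower on average in stiff gels with 1 stiff library inside the soft range. This share and ratio were chosen after the values were seen and were not tested.

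Among the chains of low abundance, Lama2, the muscle and nerve alpha chain, had 2.07, 1.63 and 1.11 FPKM in stiff libraries, against 0.844, 0.991 and 0.798 FPKM in soft libraries. Lamb3, a chain of the epithelial anchoring laminin, had 1.18, 1.00 and 0.954 FPKM in stiff libraries, against 1.36, 2.12 and 2.42 FPKM in soft libraries. Neither pair of groups overlapped and neither gene was called (limma adjusted p = 0.0890 and 0.0631). For Lamb3 the adjusted p was 0.00328 without soft replicate 1 and 0.131 to 0.198 when any other library was left out. Groups that do not overlap were seen in 15.5% of tested genes with stiff higher and in 10.4% with stiff lower. Lama3 and Lamc3 were at or below 0.2 FPKM throughout, with 12 and 2 reads in their lowest libraries. Lama1 averaged 2.03 ± 0.153 FPKM in stiff and 1.74 ± 0.274 FPKM in soft gels. Among basement membrane-associated proteins, Smoc2, a Sparc-family calcium-binding protein, had 2.19, 2.60 and 4.28 FPKM in stiff libraries, against 4.67, 5.29 and 5.40 FPKM in soft libraries (log2 fold change -0.64 ± 0.17 SE, limma adjusted p = 0.0585). It was called without soft replicate 1 (0.0355) or stiff replicate 3 (0.0212). Smoc1, Npnt (nephronectin, an integrin ligand) and Vwa1 had overlapping groups and were not called (limma adjusted p from 0.279 to 0.944).

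**Figure D3:**
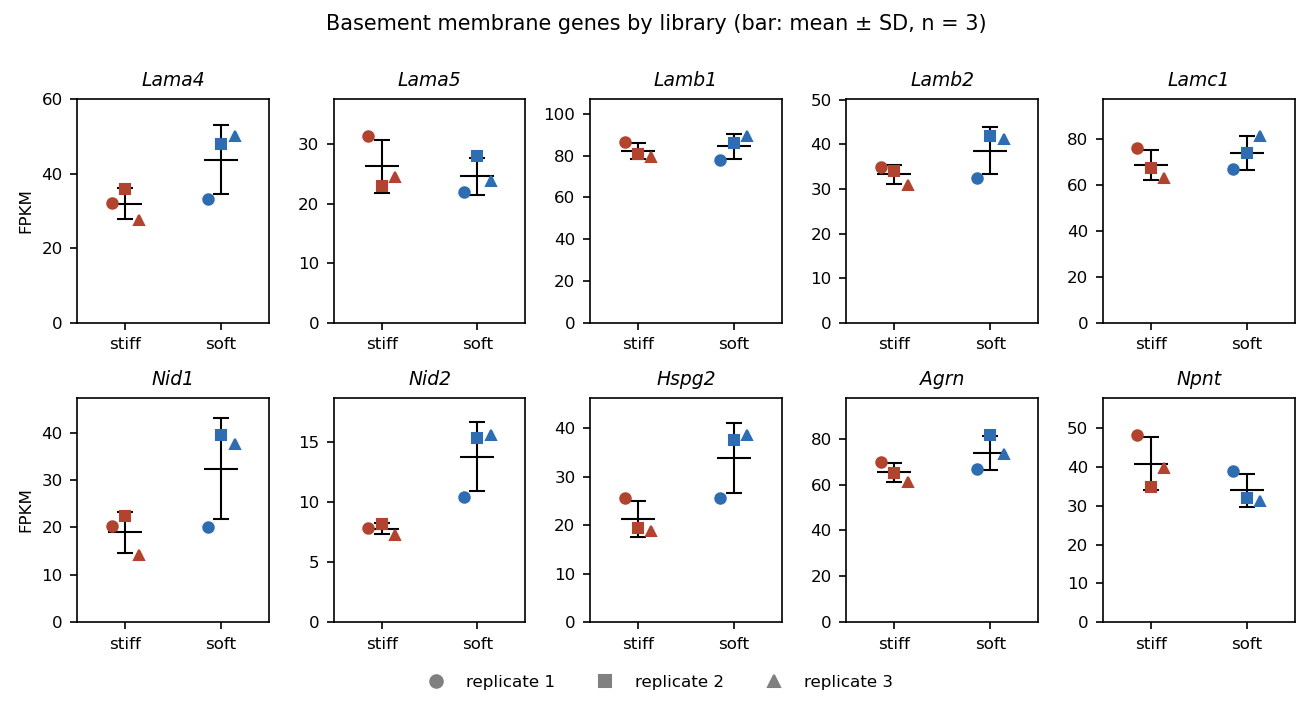
FPKM (vertical axes, each from 0) of 10 basement membrane genes in stiff (left) and soft (right) libraries, with bars for the mean and SD of 3 libraries. Soft replicate 1 (circle) is the lowest soft library in every panel but that of Npnt, where it is the highest. In every panel but that of Nid2 it lies at or near the stiff level.

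The 9 adhesive and matricellular members did not share a direction, with 4 positive and 5 negative log2 fold changes. There were 2 calls higher (Postn and Sparcl1) and 1 lower (Spp1), against 3.13% and 2.68% of all tested genes. Fn1, fibronectin, had 255, 222 and 197 FPKM in stiff libraries, against 233, 346 and 393 FPKM in soft libraries. Tnc, tenascin C, had 19.8, 20.1 and 16.1 FPKM in stiff libraries, against 18.6, 27.3 and 31.6 FPKM in soft libraries. Thbs1, thrombospondin 1, an activator of latent TGF-beta, had 36.3, 27.4 and 32.0 FPKM in stiff libraries, against 35.9, 42.9 and 52.7 FPKM in soft libraries. None of these was called (limma adjusted p = 0.137, 0.185 and 0.104), and in each the value of soft replicate 1 lay within the stiff range, as in 43.1% of all tested genes. Thbs2, a paralog of Thbs1, averaged 1.51 ± 0.315 FPKM in stiff and 1.38 ± 0.0872 FPKM in soft gels (SD, n = 3 each).

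The small leucine-rich proteoglycans, which bind collagen fibrils, differed among themselves and were not called. Dcn, decorin, had 185, 174 and 186 FPKM in stiff libraries, against 164, 113 and 97.8 FPKM in soft libraries. Its groups did not overlap (log2 fold change 0.57 ± 0.16 SE, limma adjusted p = 0.0726). Lum, lumican, had 422, 384 and 428 FPKM in stiff libraries, against 394, 316 and 269 FPKM in soft libraries (limma adjusted p = 0.145). Bgn, biglycan, averaged 35.7 ± 4.80 FPKM in stiff and 41.8 ± 9.76 FPKM in soft gels, with overlapping groups.

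Among cartilage-type and cell surface members, only Cnmd was called by limma. Otor, otoraplin, a protein secreted in the cochlea and the second most abundant member, had 666, 911 and 746 FPKM in stiff libraries, against 727, 954 and 815 FPKM in soft libraries. Its spread within each group was larger than the gap between them (limma adjusted p = 0.719). Matn4, a matrilin, had 3.91, 4.35 and 3.07 FPKM in stiff libraries, against 4.53, 6.95 and 5.24 FPKM in soft libraries (limma adjusted p = 0.106), and its exons overlap Rbpjl on the other strand. Its groups did not overlap, as in 10.4% of all tested genes with stiff lower, and the authors' table has it lower (q = 0.0295). Its limma adjusted p was 0.0260 without soft replicate 1 and 0.108 to 0.309 when any other library was left out. Vcan, versican, a hyaluronan-binding proteoglycan, averaged 13.1 ± 1.81 FPKM in stiff and 14.4 ± 0.942 FPKM in soft gels. Of the 4 syndecans, heparan sulfate co-receptors of the membrane, 0 were called by limma, with log2 fold changes from 0.03 to 0.24. Only 1, Sdc3, had an unadjusted p under 0.05, near the share of 21.7% of all tested genes. Matn3 and Srpx2 were under 0.2 FPKM in every library, with 1 read each in their lowest libraries.

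Soft replicate 1 bore on most of these results. It lay between the mean of the stiff libraries and the mean of the other soft libraries for 27 of the 50 tested members (54.0%), against 39.3% of all tested genes. Within the range of the stiff libraries it lay for 23 of the 50, near the 43.1% of all tested genes. Without it, 8 members were higher and 19 lower of 51 tested (limma), while the background also grew, to 7.28% higher and 6.5% lower. The 19 included 7 basement membrane genes (Lama4, Lamb2, Lamb3, Nid1, Nid2, Hspg2 and Smoc2), together with Fn1, Tgfbi, Tnc, Thbs1, Fbn2, Emilin1, Bgn, Matn4 and Efemp2. Dcn, Lum and Sdc3 were then called higher, and Fbln2 was lost (0.0564). Leaving out another library had the opposite effect. Without soft replicate 2, 2 members were higher and 0 lower, against 0.425% and 0.127% of all tested genes. When soft replicate 3 was left out, 3 were higher and 2 lower (background 1.05% and 0.729%). Leaving out stiff replicate 1 gave 2 higher and 1 lower (0.559% and 0.398%), stiff replicate 2 gave 5 higher and 3 lower (1.88% and 1.83%), and stiff replicate 3 gave 4 higher and 2 lower (0.763% and 0.458%). What sets soft replicate 1 apart was not tested.

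**Figure D4:**
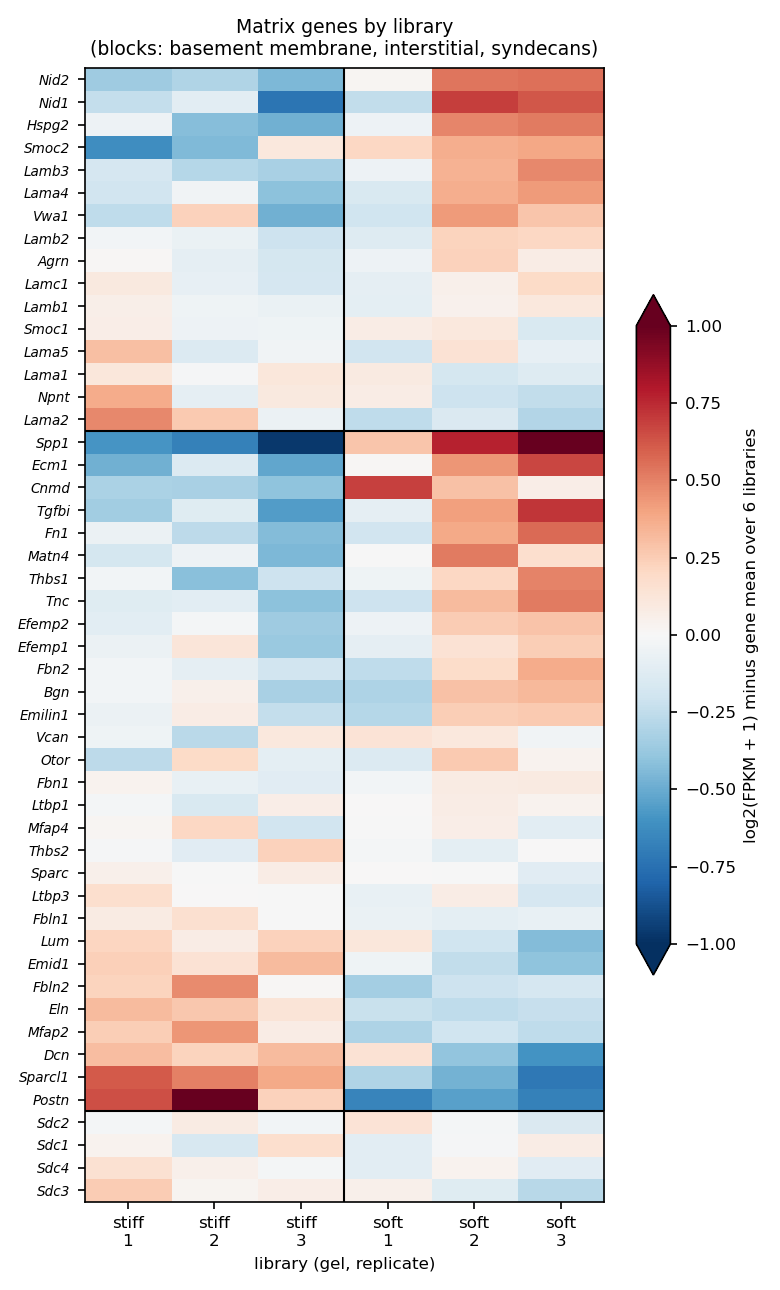
Deviation of each tested matrix gene (rows, in 3 blocks) from its mean over the 6 libraries (columns), in log2(FPKM + 1); red is above and blue below the mean, and the scale ends at 1 in either direction. Soft replicates 2 and 3 are red for Nid1, Nid2, Hspg2, Spp1, Tgfbi and Fn1, while soft replicate 1 is nearer the stiff libraries in several rows, with Cnmd as a row where it is the highest.

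Other matrix genes were read from 4 functional lists, to be set against the 3.13% of all tested genes called higher and 2.68% called lower; with 7 to 23 genes tested in a list, each count is small. Among 12 other basement membrane genes tested, 0 rose and 3 fell: Tinagl1, a matrix protein that binds laminin receptors, averaged 3.49 ± 0.493 FPKM in stiff and 6.13 ± 0.825 FPKM in soft gels, and both chains of the main type IV collagen, Col4a1 and Col4a2, were lower (log2 fold changes of -0.33 ± 0.08 SE for Col4a1, limma adjusted p = 0.0439, and -0.48 ± 0.08 SE for Col4a2, 0.0132). Of 7 laminin receptor genes 0 rose and 2 fell, Itga3 (-0.58 ± 0.10 SE, 0.0147) and Itga6 (-0.32 ± 0.06 SE, 0.0209), which encode alpha subunits of laminin-binding integrins. Of 13 other interstitial genes tested, 1 rose, the testican gene Spock1 (0.74 ± 0.18 SE, limma adjusted p = 0.0477), and 2 fell, Igfbp7 (-1.34 ± 0.28 SE, 0.0309) and the calcification inhibitor Mgp. Among 23 enzymes that build or trim glycosaminoglycan chains, 1 rose, the chondroitin synthase Chsy1 (0.50 ± 0.08 SE, limma adjusted p = 0.0140), and 1 fell, the heparan sulfate 6-O-endosulfatase Sulf1 (-0.60 ± 0.15 SE, 0.0494). Tinagl1, Itga6 and Mgp were named after their values were seen. Each of these 10 calls was lost in at least 2 of the 6 fits that left out a library, and was kept without soft replicate 1.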

How the data were processed

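The authors deposited a single table of the whole series with 15016 genes. Its expression columns, 1 per library, were taken as FPKM made by the authors: the header names no unit, and the value of 1 read varied between libraries as the inverse of their total reads. The submitters' processing notes name TopHat2 2.1.1, DESeq2 and the build mm10, without saying what each was used for. No source used here names the counter or the annotation. Per the labels' protocols, libraries were made with TruSeq RNA v2 (not stranded) and sequenced on an Illumina instrument. The deposited base mean (a signal: mean normalized count), log2 fold change with its error, linear fold, Wald score, p-value and q-value are the authors' own stiff-over-soft comparison.

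Whole reads were rebuilt from the FPKM and base mean (100.0% of values whole within 0.05 reads). A count of 0 was taken to allow up to 3 reads a library, or 0.168 to 0.186 CPM. Genes with a mean of at least 1 FPKM in either group were tested on log2(FPKM + 1) with limma 3.58.1 (R 4.3.3, intensity trend, no block), adjusted over all tested genes; on this scale fold changes of low genes are understated. The fit was tested on simulated data. Alternatives were pseudocounts of 0.1 and 0.5, no filter, a filter of 5 FPKM, median-ratio scaling, limma-voom on rebuilt reads, no trend, the replicate block and each library left out. Values of every library are printed for called members, those the authors' table or the filter setting calls and the 5 most abundant. Those of Nid1, Lama5, Fbn2, Tnc and Dcn are printed as well, outside this rule. Genes of the other matrix lists are those of lowest adjusted p per list and direction, with Col4a1, Col4a2 and those stated as named after their values were seen. Positions and exon overlaps are from GENCODE M21 (GRCm38). Exons of Eln (antisense Gm30003), Spp1 (Gm42793) and Ecm1 (Mir7014) overlap other annotated transcripts, whose reads may be counted with them. The members, classes and lists were chosen with earlier results of these data known. A marker list is not reported here.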

Additional observations from a re-analysis of the deposited data

How the results depend on the processing

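Of the 10 members called, all kept their direction in every alternative tried; 10 were still called with either other pseudocount, with limma-voom on rebuilt reads and with the replicate block, 9 with median-ratio scaling, without the trend and with a filter of 5 FPKM, and 8 without a filter. With limma-voom on rebuilt reads 7 members fell, 3 of them basement membrane genes, against 4 and 1 in the values reported. Same-numbered libraries correlated at 0.00873, 0.219 and -0.211 in their deviations from the group means. With 3 libraries a group, these values cannot decide whether the numbers pair the libraries. The replicate block gave 7 members higher and 6 lower, with 2 basement membrane members among the lower ones. With a library left out, calls over all genes ranged from 50 to 860 higher and from 15 to 767 lower, members from 2 to 8 higher and from 0 to 19 lower, basement membrane members from 0 to 7 lower, and interstitial members from 2 to 7 higher and from 0 to 12 lower. The highest counts came without soft replicate 1, and the lowest were all reached without soft replicate 2. With 3 libraries a group, Matn3, Srpx2, Lamc3 and Lama3 were too low for a comparison.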
